A study of Arabidopsis thaliana with 12 samples.

Results

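The late embryogenesis abundant (LEA) protein family of Arabidopsis was described from probe sets that the array annotation pairs with exactly 1 gene, where that gene is 1 of 52 listed LEA loci. All 52 loci were found in the gene table by locus tag, and 36 of them had such a probe set, 1 each, out of 22746 probe sets on the array without its controls. The rule takes members by annotation alone, but the list itself was drawn up with earlier results of these data known. By class, 6 of 10 listed dehydrins, 15 of 18 LEA_4 genes, 3 of 3 LEA_1 genes, 3 of 3 PvLEA18 genes, 2 of 3 LEA_2 genes, 2 of 4 LEA_3 genes, 2 of 2 AtM genes, 2 of 6 seed maturation protein (SMP) genes and AT5G66780, which was given no class here, had a probe set. None of the 2 LEA_5 genes had one, and the 16 loci without a single-gene probe set, among them ERD10 (AT1G20450), are not analysed here.

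The study compared 12 ATH1 arrays of RNA from 5-day-old seedlings in 4 groups of 3. The groups were Zat12 seedlings given 20 mM hydrogen peroxide (H2O2) for 1 hour, untreated Zat12 seedlings, wildtype seedlings given H2O2 in the same way, and untreated wildtype seedlings. Zat12 seedlings were transgenic plants of the Columbia background in which the 35S-CaMV promoter drives constant expression of Zat12 (At5g59820), a zinc finger protein involved in oxidative stress. Wildtype was Columbia, and all seedlings grew in liquid MS medium. The 35S promoter is active in most tissues, and the labels do not say how many transgenic lines were used. No probe set was paired with ZAT12 itself, so its level was not analysed here. Whether the replicates are separate cultures is not stated, so the p-values cover only array-to-array spread within groups, and this spread may be technical.

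LEA proteins are small, very hydrophilic proteins, and most of them have no fixed fold in water. They accumulate late in seed development, when the embryo becomes tolerant of drying, and in vegetative tissue during drought, cold or abscisic acid treatment. There they are thought to protect membranes and other proteins as cells lose water. Abscisic acid acts on many of these genes through ABI3, ABI5 and related bZIP factors, and cold and drought act on others through CBF and DREB factors.

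Values below are array signals on a linear scale, scaled by the authors so that the trimmed mean of every array was about 100.01. A signal is comparable between arrays for 1 probe set, not between probe sets. Log2 fold changes are differences of group means of log2(signal + 3), given with their standard error (SE). Adjusted p-values are from limma, fitted to all 12 arrays at once, with Benjamini-Hochberg adjustment over the 13647 probe sets whose mean signal passed a filter at about 28.1. A probe set was called at an adjusted p below 0.05. Of the 36 LEA probe sets, 22 passed the filter and 14 had lower signals. A filter on the mean can favour a probe set that is high in 1 group, so counts over all 36 without the filter are also given. The array of Zat12 replicate 2 held no value for 28.1% of its probe sets, including 11 LEA probe sets. The fit dropped those cells, and untreated Zat12 then has 2 arrays. Whole seedlings were measured, so fewer cells of a type and less RNA per cell cannot be told apart.

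Under H2O2, Zat12 seedlings had higher levels of most LEA transcripts that could be tested than wildtype seedlings. Of the 22 tested, 14 were called higher and none lower, where 1.52% of all tested probe sets were called higher and 1.4% lower. At an unadjusted p below 0.05, 17 were higher and 0 lower. Without the filter, 11 of all 36 were called higher and 0 lower, where the shares of all 22746 probe sets were 0.576% and 0.532%. The median log2 fold change was 1.17 over the 22 and 0.57 over the 36, beside -0.01 over all probe sets in both fits. Among the 50 probe sets with the highest log2 fold changes of the 13647, 12 were LEA probe sets, and AT4G36600 had the highest of all. AT4G36600 averaged 21.0 in treated and 28.0 in untreated wildtype, and AT5G44310 25.4 and 27.6. Both were thus below the filter signal in wildtype and passed it through their Zat12 arrays. The ranking was not made without the filter. By class, the 14 comprised all 3 LEA_1 genes, 7 of the 8 tested LEA_4 genes, 2 of 4 tested dehydrins, 1 of 2 tested PvLEA18 genes and AT5G66780. Neither of the 2 LEA_2 genes and none of the single tested LEA_3 and AtM genes were called, and no SMP gene passed the filter.

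**Figure D1:**
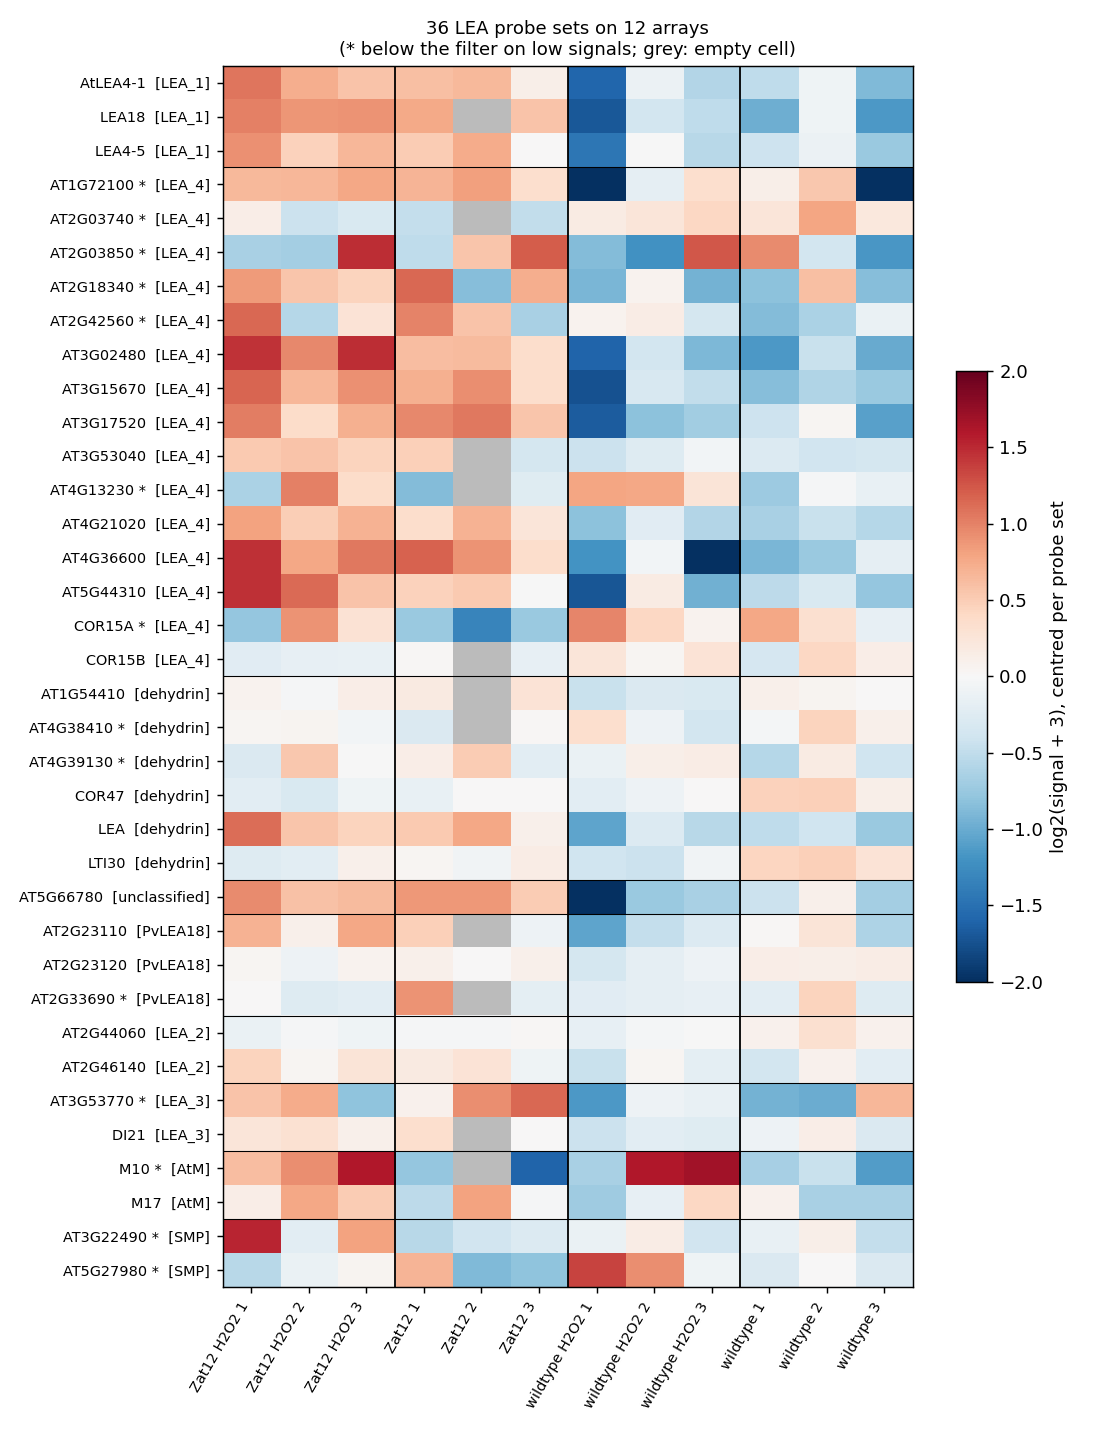
Signals of all 36 LEA probe sets (rows, by class) on the 12 arrays (columns), as log2(signal + 3) minus the mean of the 4 group means of that probe set. Red is higher and blue lower than that mean, grey cells had no value, and an asterisk marks the 14 probe sets below the filter. Apart from AT1G54410 and AT2G23110, the rows of the probe sets called under H2O2 are red on the 3 treated Zat12 arrays and blue on wildtype H2O2 replicate 1.

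The 3 LEA_1 genes code for small proteins linked to tolerance of water deficit. LEA18 (AT2G35300) had signals of 321, 294 and 298 in Zat12 seedlings under H2O2, against 47.1, 122 and 111 in wildtype seedlings under H2O2. Untreated, it had 271 and 238 on the 2 Zat12 arrays with a value, against 78.9, 148 and 69.6 in wildtype. In both conditions every Zat12 array lay above every wildtype array. The log2 fold change was 1.78 under H2O2 (SE 0.29, adjusted p = 0.00351) and 1.41 without treatment (SE 0.32, adjusted p = 0.0427), and both were called.

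AtLEA4-1 (AT1G32560) gave 307, 241 and 215 in Zat12 under H2O2, against 46, 132 and 95.1 in wildtype under H2O2. Without treatment it gave 219, 228 and 155 in Zat12, against 101, 135 and 76.8 in wildtype. Again no Zat12 array fell within the wildtype range, but the untreated difference of 0.94 was not called (SE 0.28, adjusted p = 0.136), while that of 1.55 under H2O2 was (SE 0.28, adjusted p = 0.00609). LEA4-5 (AT5G06760), whose protein is known to guard enzymes against drying in vitro, had 253, 184 and 214 in Zat12 under H2O2, against 47, 133 and 89.6 in wildtype under H2O2. Its untreated signals were 191, 225 and 134 in Zat12, against 99.7, 122 and 78.3 in wildtype. It was called under H2O2 (1.35, SE 0.27, adjusted p = 0.0137) and not without treatment (0.84, SE 0.27, adjusted p = 0.172). The lowest wildtype value of all 3 LEA_1 genes was on the same array, wildtype H2O2 replicate 1. Without that array the difference of LEA4-5 under H2O2 was 0.96 and no longer called (adjusted p = 0.0568), and it was also not called without Zat12 H2O2 replicate 1 (adjusted p = 0.0664) or replicate 3 (adjusted p = 0.0516).

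LEA_4 proteins carry repeats that fold into helices as they dry. AT3G02480 had the lowest adjusted p of the family. Its signals were 1089, 776 and 1115 in Zat12 under H2O2, against 129, 309.5 and 212 in wildtype under H2O2. Its untreated signals were 613, 616 and 511 in Zat12, against 178, 291 and 197 in wildtype. The genotypes were wide apart on every array, and treated Zat12 was the highest group. The log2 fold change between genotypes was 2.25 under H2O2 (SE 0.24, adjusted p = 6.83e-05) and 1.40 without treatment (SE 0.24, adjusted p = 0.0069).

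AT3G15670 had signals of 594, 421 and 502 in Zat12 under H2O2, against 76.3, 210.4 and 187 in wildtype under H2O2. Without treatment it had 435, 504 and 339 in Zat12, against 145, 172 and 157 in wildtype. The genotypes did not overlap in either condition, and wildtype averaged 158 with and without H2O2. Both differences were called, 1.77 under H2O2 (SE 0.26, adjusted p = 0.00164) and 1.40 without treatment (SE 0.26, adjusted p = 0.0126).

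AT3G17520 gave 284, 178 and 229 in Zat12 under H2O2, against 41.3, 76.6 and 84.1 in wildtype under H2O2. The untreated values were 271, 289 and 204 in Zat12, against 103, 141 and 63.1 in wildtype. The groups of each condition were again separate, and treated wildtype had the lowest mean. The difference was 1.76 under H2O2 (SE 0.27, adjusted p = 0.00187) and 1.34 without treatment (SE 0.27, adjusted p = 0.0184).

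AT4G21020 was dimmer but close within its groups, with 79.9, 63.5 and 73.8 in Zat12 under H2O2, against 23.9, 37.3 and 28.6 in wildtype under H2O2. Untreated, it had 57.5, 73.5 and 53.1 in Zat12, against 27.3, 31.7 and 29 in wildtype. Its level in both Zat12 groups was above all 6 wildtype arrays. It was called in both conditions, by 1.21 under H2O2 (SE 0.18, adjusted p = 0.00194) and by 0.98 without treatment (SE 0.18, adjusted p = 0.0126).

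Another pair of LEA_4 genes, AT4G36600 and AT5G44310, had large differences that rested on low wildtype signals. AT4G36600 had 124, 75.6 and 92.4 in Zat12 under H2O2, against 17.2, 41.5 and 4.42 in wildtype under H2O2. Its untreated values were 102, 83.2 and 56 in Zat12, against 21.5, 24.5 and 38 in wildtype. The genotypes were separate in both conditions, but the treated wildtype arrays were spread widely. The log2 fold change under H2O2 was 2.39 (SE 0.43, adjusted p = 0.00645), and between 2.70 with no offset added before the logarithm and 1.87 with 4 times the offset. The untreated difference of 1.42 was not called (SE 0.43, adjusted p = 0.147). AT5G44310 had 118, 93 and 62.3 in Zat12 under H2O2, against 10.4, 46.1 and 19.6 in wildtype under H2O2. Without treatment it had 57.4, 59.9 and 40.6 in Zat12, against 27.5, 32.7 and 22.6 in wildtype. Within each condition no array of 1 genotype overlapped the other. The difference was called under H2O2 (1.89, SE 0.34, adjusted p = 0.00663) but not without treatment (0.86, SE 0.34, adjusted p = 0.303). In the fit without the filter, the differences under H2O2 had adjusted p = 0.0361 for AT4G36600 and 0.0357 for AT5G44310.

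AT3G53040 passed the threshold narrowly. It had 66.6, 68.7 and 62.4 in Zat12 under H2O2, against 32.7, 37.6 and 43.7 in wildtype under H2O2. The untreated values were 64.1 and 34.9 on 2 Zat12 arrays, against 37.1, 34.2 and 35 in wildtype. Under H2O2 the genotypes were separate and differed by 0.76 (SE 0.20, adjusted p = 0.0491), and without treatment they overlapped (0.39, SE 0.22, adjusted p = 0.528). Leaving out any 1 of the 6 H2O2-treated arrays ended the call, with adjusted p-values between 0.0677 and 0.176, and so did the replicate number as a block in all 4 groups (adjusted p = 0.0633). With that block on the treated arrays alone it was called (adjusted p = 0.0176). The eighth tested LEA_4 gene, COR15B, was not called in any contrast, and its signals lay between 32.5 and 56.9 on all arrays.

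AT5G66780, which was left without a class, had 218, 169 and 175 in Zat12 under H2O2, against 25.9, 65.6 and 70.4 in wildtype under H2O2. Untreated, it had 207, 208 and 160.4 in Zat12, against 81.9, 119.9 and 68.5 in wildtype. The 4 groups fell into a high Zat12 pair and a lower wildtype pair, with treated wildtype lowest on average. The genotypes differed by 1.85 under H2O2 (SE 0.27, adjusted p = 0.00159), and the untreated difference of 1.09 was not called (SE 0.27, adjusted p = 0.0606).

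Dehydrins hold lysine-rich segments that bind membranes, and the 4 tested ones did not move together. The dehydrin named LEA (AT2G21490) followed the pattern of the LEA_4 genes, with 189.8, 127 and 118 in Zat12 under H2O2, against 40.1, 70.9 and 57.9 in wildtype under H2O2. Without treatment it had 126, 149 and 93.1 in Zat12, against 60, 64.4 and 50.5 in wildtype. The genotypes were separate in both conditions and both differences were called, 1.32 under H2O2 (SE 0.21, adjusted p = 0.00285) and 1.02 without treatment (SE 0.21, adjusted p = 0.0262).

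AT1G54410, a small metal-binding dehydrin of vegetative tissue known as HIRD11, differed less. It had 1636, 1531 and 1698 in Zat12 under H2O2, against 1143, 1276 and 1257 in wildtype under H2O2. Untreated signals were 1759.7 and 1877 on 2 Zat12 arrays, against 1663, 1617 and 1559 in wildtype. Treated wildtype stood apart as the low group. The genotypes differed by 0.40 under H2O2 (SE 0.09, adjusted p = 0.0294) and by 0.17 without treatment (SE 0.10, adjusted p = 0.574). The call under H2O2 was lost without any 1 of the 6 treated arrays, at adjusted p-values between 0.0527 and 0.125.

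COR47, an acidic dehydrin induced by cold, and LTI30, a dehydrin that binds membranes, were not called between the genotypes. COR47 had 761, 716 and 834 in Zat12 under H2O2, against 763, 827 and 887 in wildtype under H2O2. Without treatment it had 799.5, 884 and 884 in Zat12, against 1213, 1228 and 956 in wildtype. Untreated wildtype was above every other group, yet the untreated genotype difference of -0.40 was not called (SE 0.11, adjusted p = 0.122), nor was that of -0.10 under H2O2 (adjusted p = 0.723). LTI30 had 233, 241 and 302 in Zat12 under H2O2, against 212, 207 and 267 in wildtype under H2O2. Its untreated values were 288, 267 and 310.1 in Zat12, against 379.8, 393 and 338 in wildtype. Here too untreated wildtype was the highest group, and the untreated difference of -0.36 was not called (SE 0.13, adjusted p = 0.238).

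**Figure D2:**
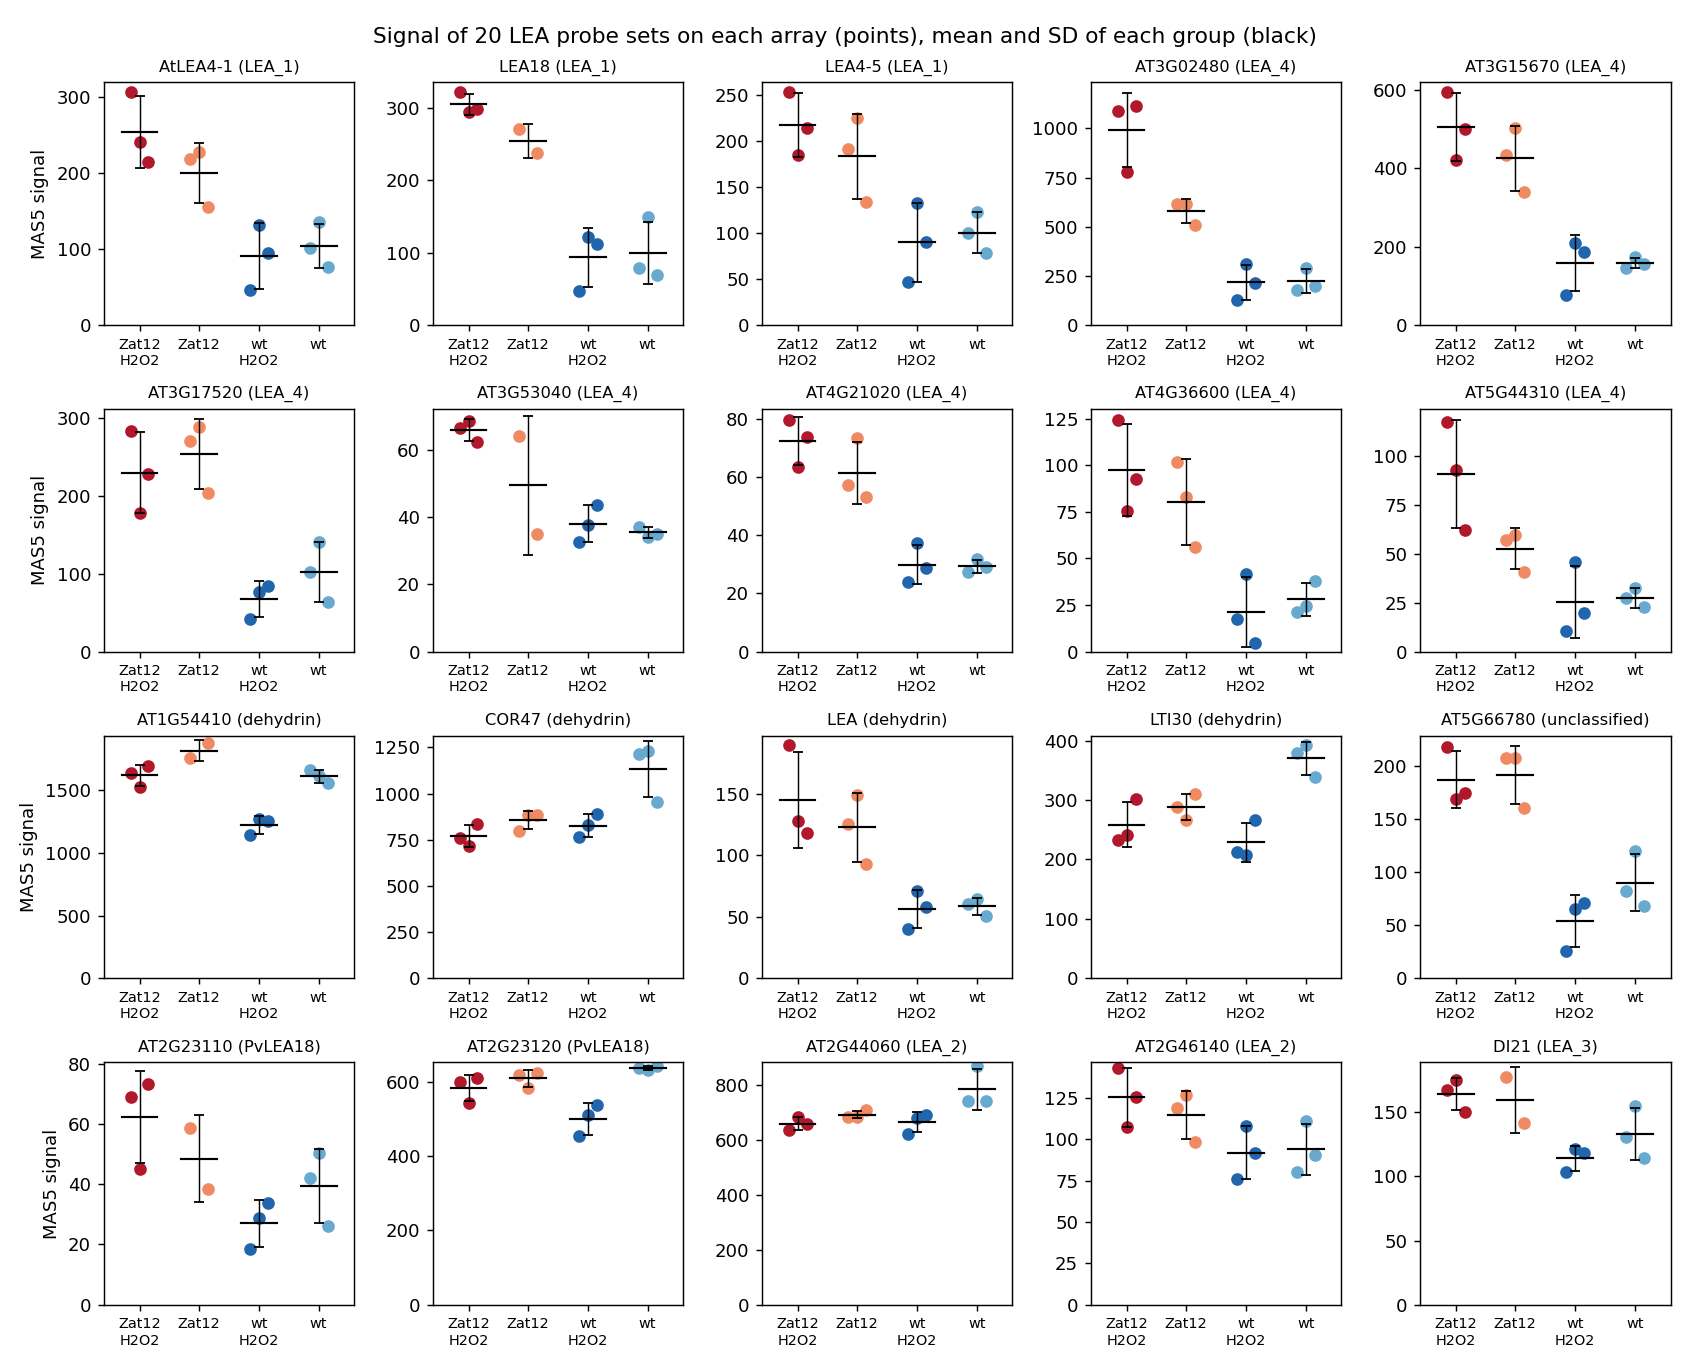
MAS5 signal (linear scale, from 0) of the 20 LEA probe sets that were called in some contrast or averaged at least 100 in some group, in 1 panel each. Points are arrays, bars the group mean and whiskers the SD, with n = 3, or n = 2 where Zat12 replicate 2 had no value; the groups run from Zat12 under H2O2 on the left to untreated wildtype on the right. The LEA_1 panels and the LEA_4 panels other than AT3G53040 show a high Zat12 pair of groups, whereas COR47 and LTI30 are highest in untreated wildtype.

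The PvLEA18 class was named after a bean protein of water deficit. Of its genes, AT2G23110 had 68.8, 44.9 and 73.1 in Zat12 under H2O2, against 18.5, 28.8 and 33.7 in wildtype under H2O2. It had 58.6 and 38.3 on 2 untreated Zat12 arrays, against 42.1, 50.3 and 26.1 in untreated wildtype. The treated groups were separate and the untreated ones overlapped. Only the difference under H2O2 was called (1.13, SE 0.27, adjusted p = 0.0322), and it was lost without 4 of the 6 treated arrays, namely wildtype H2O2 replicates 1 and 2 and Zat12 H2O2 replicates 1 and 3, at adjusted p-values between 0.0644 and 0.144. Its direct neighbour in the gene table, AT2G23120, had 599, 543 and 609 in Zat12 under H2O2, against 453, 511 and 539 in wildtype under H2O2. Untreated signals were 619.9, 583 and 625 in Zat12, against 639, 633 and 643 in wildtype. Zat12 arrays were thus all above wildtype under H2O2 and all below it without treatment, but neither difference was called (0.22, adjusted p = 0.263, and -0.07, adjusted p = 0.865).

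LEA_2 proteins differ from the rest of the family in having a stable fold. AT2G44060 had 638, 685 and 661 in Zat12 under H2O2, against 625, 681 and 692 in wildtype under H2O2, with overlapping groups and a log2 fold change of -0.01 (SE 0.10, adjusted p = 0.976). AT2G46140 had 143, 108 and 126 in Zat12 under H2O2, against 75.9, 108 and 91.6 in wildtype under H2O2. Those groups met at about 108, and the difference of 0.44 was not called (SE 0.16, adjusted p = 0.153). Without treatment AT2G46140 had 119, 127 and 98.7 in Zat12, against 80.5, 111 and 90.4 in wildtype, and AT2G44060 had 685, 687 and 709 in Zat12, against 743, 873 and 743 in wildtype. DI21 (AT4G15910), a drought-induced LEA_3 gene, had 167, 175 and 150.1 in Zat12 under H2O2, against 103, 121 and 118 in wildtype under H2O2. Those groups were separate, but the difference of 0.51 missed the threshold (SE 0.14, adjusted p = 0.0557) and passed it with the replicate number as a block (adjusted p = 0.0423). The untreated values of DI21 were 177 and 141 on 2 Zat12 arrays, against 130.2, 155 and 114 in wildtype, and overlapped.

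Without treatment, 6 of the 22 tested LEA probe sets were called higher in Zat12 than in wildtype and 0 lower. Of all tested probe sets, 0.725% were called higher and 0.498% lower. At an unadjusted p below 0.05, 11 LEA probe sets were higher and 2 lower. The 6 were AT3G02480, AT3G15670, AT3G17520, AT4G21020, LEA and LEA18. All 6 were also among the 14 called under H2O2, that is 6 of 6 and 6 of 14. Of all tested probe sets, 99 were called higher without treatment and 207 under H2O2, and their overlap was not counted. The 2 comparisons use different arrays but share 1 estimate of the spread of each probe set, so their calls are not independent. Without the filter 1 of the 36 was called higher and 0 lower, where 0.163% and 0.101% of all probe sets were. The median log2 fold change was 0.67 over the 22 and 0.40 over the 36, beside -0.00 for all probe sets. Across the 36 LEA probe sets, the fold changes under H2O2 and without treatment had a Pearson correlation of 0.84 and a Spearman correlation of 0.85. These probe sets share the arrays of each condition. The correlation over all probe sets was not computed, so these values are not shown to be particular to the family.

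The untreated count depended on single arrays. It was 0 without Zat12 replicate 1, 1 without wildtype replicate 1 or without Zat12 replicate 2, and 9 at most. None of the 6 was called in every such fit. Adding the array's 25S control (ribosomal RNA) to the model as a covariate left 3 of them called and lost AT3G15670 (adjusted p = 0.0695), AT4G21020 (adjusted p = 0.122) and LEA (adjusted p = 0.174). That control had a mean signal of 173 ± 92.3 on untreated Zat12 arrays and 71.4 ± 48.1 on untreated wildtype arrays (SD, n = 3 each), and its part in the result was not tested beyond that fit. Under H2O2, 10 of the 14 calls held without any 1 array and under every other setting tried at the same threshold, namely AT3G02480, AT3G15670, AT3G17520, AT4G21020, AT4G36600, AT5G44310, AT5G66780, AtLEA4-1, LEA and LEA18. Over 9798 probe sets, same-numbered treated arrays of both genotypes deviated together weakly, with correlations of 0.12 to 0.15. The tested LEA probe sets did not show this for replicate 1. It was lowest of its group for 19 of 22 in wildtype H2O2. In Zat12 H2O2 it was highest for 11 of 22 and lowest for 4. A fit on the 6 treated arrays with the replicate number as a block was added after seeing the data. It called 16 LEA probe sets higher and 0 lower. These were the 14, DI21 (adjusted p = 0.0186) and M17 (adjusted p = 0.0477), and the fit called 533 of all tested probe sets higher in place of 207 and 480 lower in place of 191.

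**Figure D3:**
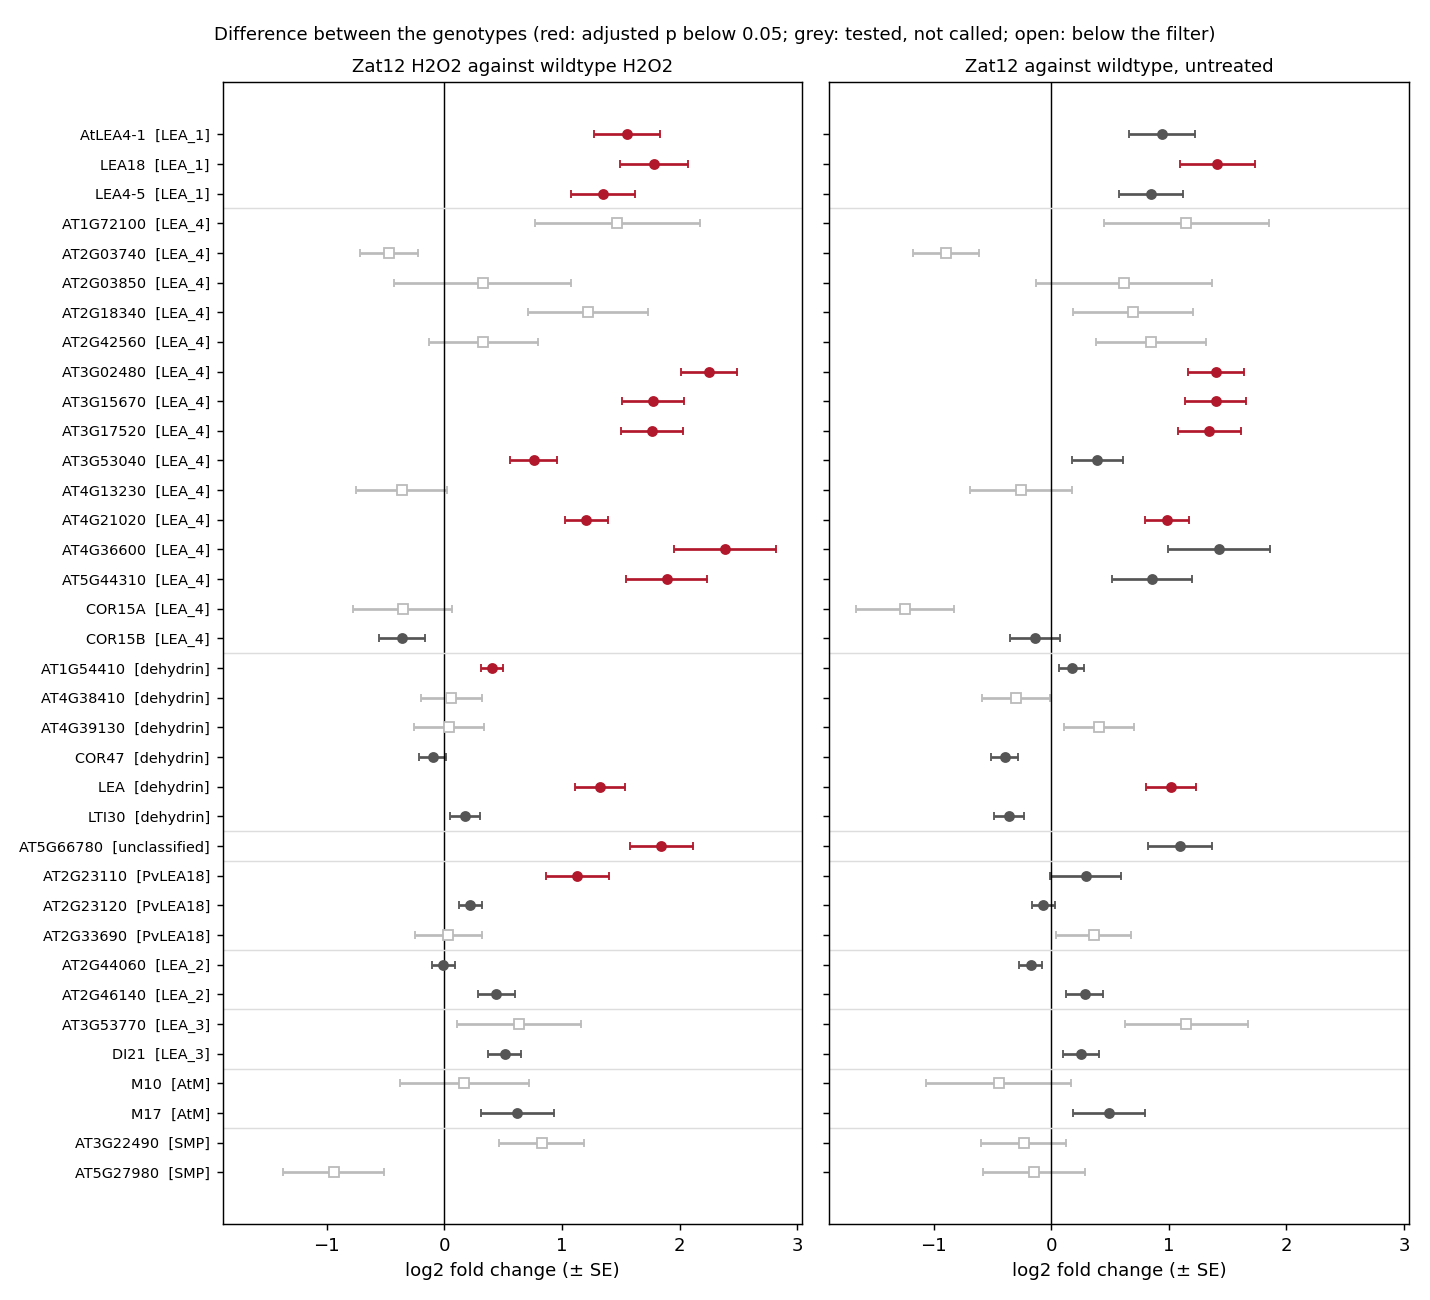
Log2 fold change (± SE) between Zat12 and wildtype for all 36 LEA probe sets, by class, under H2O2 (left) and untreated (right). Red points were called, grey points were tested and not called, and open squares lie below the filter, with values from the fit without it. On the left 14 points are red and on the right 6, all of them to the right of 0.

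In wildtype seedlings, no LEA transcript was called higher after H2O2. Of the 22 tested, 5 were called lower and 0 higher, while 12.4% of all tested probe sets were called lower and 9.59% higher. At an unadjusted p below 0.05, 7 were lower and 0 higher, and without the filter 4 of the 36 were called lower and 0 higher, where 6.34% and 5.82% of all probe sets were. The median log2 fold change was -0.24 over the 22 and -0.13 over the 36, beside -0.07 and -0.04 over all probe sets. The 5 were 3 of the 4 tested dehydrins (LTI30, COR47 and AT1G54410), AT2G23120 and AT5G66780. None of the 3 LEA_1 genes and none of the 8 tested LEA_4 genes was called.

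The signals of these 5 genes are given above. LTI30 averaged 229 ± 32.9 in treated and 370.2 ± 28.4 in untreated wildtype (SD, n = 3 each), a log2 fold change of -0.69 (SE 0.13, adjusted p = 0.000716). COR47 averaged 826 ± 62.1 in treated and 1132 ± 153 in untreated wildtype (SD, n = 3 each), a log2 fold change of -0.45 (SE 0.11, adjusted p = 0.00834). For AT1G54410 the means were 1225 ± 71.7 in treated and 1613 ± 52.3 in untreated wildtype (SD, n = 3 each), with a log2 fold change of -0.40 (SE 0.09, adjusted p = 0.00553). In all 3 dehydrins the treated arrays lay below every untreated one. AT2G23120 was also separate, at -0.35 (SE 0.10, adjusted p = 0.0159), whereas the groups of AT5G66780 overlapped (-0.79, SE 0.27, adjusted p = 0.0464).

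Wildtype H2O2 replicate 1 was the lowest of its group for 19 of the 22 tested LEA probe sets, and without it 3 were called, the dehydrins LTI30, COR47 and AT1G54410. The call of AT5G66780 was lost under 15 of 22 alternatives, and that of AT2G23120 also in a fit on the compared groups only (adjusted p = 0.053). The 25S control had a mean signal of 232 ± 92.3 in treated and 71.4 ± 48.1 in untreated wildtype (SD, n = 3 each), and with it as a covariate none of the 5 was called, with LTI30 at -0.36 (adjusted p = 0.114), COR47 at -0.21 (adjusted p = 0.375) and AT1G54410 at -0.29 (adjusted p = 0.177). The control ran from 125.7 to 295 in treated and from 32.9 to 125.3 in untreated wildtype. These ranges do not overlap, so no treated and untreated wildtype arrays shared a level of the control. The adjusted values rest on the slope of the control within groups, carried over between these ranges. The part of the control in these calls was not tested beyond that fit.

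In Zat12 seedlings, H2O2 raised AT3G02480, the only 1 of the 22 that was called higher, and 0 were called lower. Of all tested probe sets, 8.16% were called higher and 9.12% lower. At an unadjusted p below 0.05, 2 LEA probe sets were higher and 0 lower. AT3G02480 averaged 993 ± 189 in treated and 580.0 ± 59.8 in untreated Zat12 seedlings (SD, n = 3 each), and the arrays did not overlap. The log2 fold change was 0.76 (SE 0.24, adjusted p = 0.0363), and the call was lost without any 1 of 5 of the 6 Zat12 arrays, all but Zat12 H2O2 replicate 2, at adjusted p-values between 0.0645 and 0.131. The median log2 fold change was 0.23 over the 22 and 0.19 over the 36, beside -0.09 and -0.07 over all probe sets. Without the filter, 1 of the 36 was called higher and 0 lower, where 5.1% and 4.69% of all probe sets were, and that one was M10 rather than AT3G02480.

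M10 (AT2G41280), a gene of maturing seeds, was below the filter and is named after its values were seen. It had 19.8, 25.2 and 42 in Zat12 under H2O2, against 5.7 and 1.87 on 2 untreated Zat12 arrays. It had 6.48, 42 and 44.5 in wildtype under H2O2, against 6.37, 7.95 and 3.82 in untreated wildtype. Treated arrays were higher in both genotypes apart from wildtype H2O2 replicate 1, which lay among the untreated ones. In the fit without the filter, the log2 fold change was 2.24 in Zat12 (adjusted p = 0.0366) and 1.62 in wildtype (adjusted p = 0.0798).

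Whether H2O2 acted differently in Zat12 and wildtype was tested as an interaction, and no LEA probe set was called in either direction, where 0% of all tested probe sets were called higher and 0.11% lower. At an unadjusted p below 0.05, 3 were higher and 0 lower, and the lowest adjusted p was 0.502, that of LTI30 (0.53, SE 0.18). Among the 22, 21 had a positive value, that is a log2 fold change with H2O2 that was higher in Zat12 than in wildtype. Their median was 0.37 beside -0.01 over all probe sets. The LEA probe sets share the same arrays, so their signs are not independent of each other. Without wildtype H2O2 replicate 1, 18 were positive and the median was 0.18. Over all 36, 28 were positive and the median was 0.34, where 10998 of all 22746 probe sets were positive with a median of -0.01. Without the filter 0 of the 36 were called, where 0% of all probe sets were called higher and 0.0132% lower. AT5G44310 had 1.03 (SE 0.49, adjusted p = 0.697) and AT3G02480 had 0.85 (SE 0.34, adjusted p = 0.626), and without that array they had 0.59 and 0.52. AT2G23120, whose genotypes changed order between conditions, had 0.29 (SE 0.14, adjusted p = 0.713). The simulation with 3 arrays per group recovered 50.7% of 2-fold interactions and 11.9% of 1.5-fold ones, so differences of this size could often not be detected here.

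**Figure D4:**
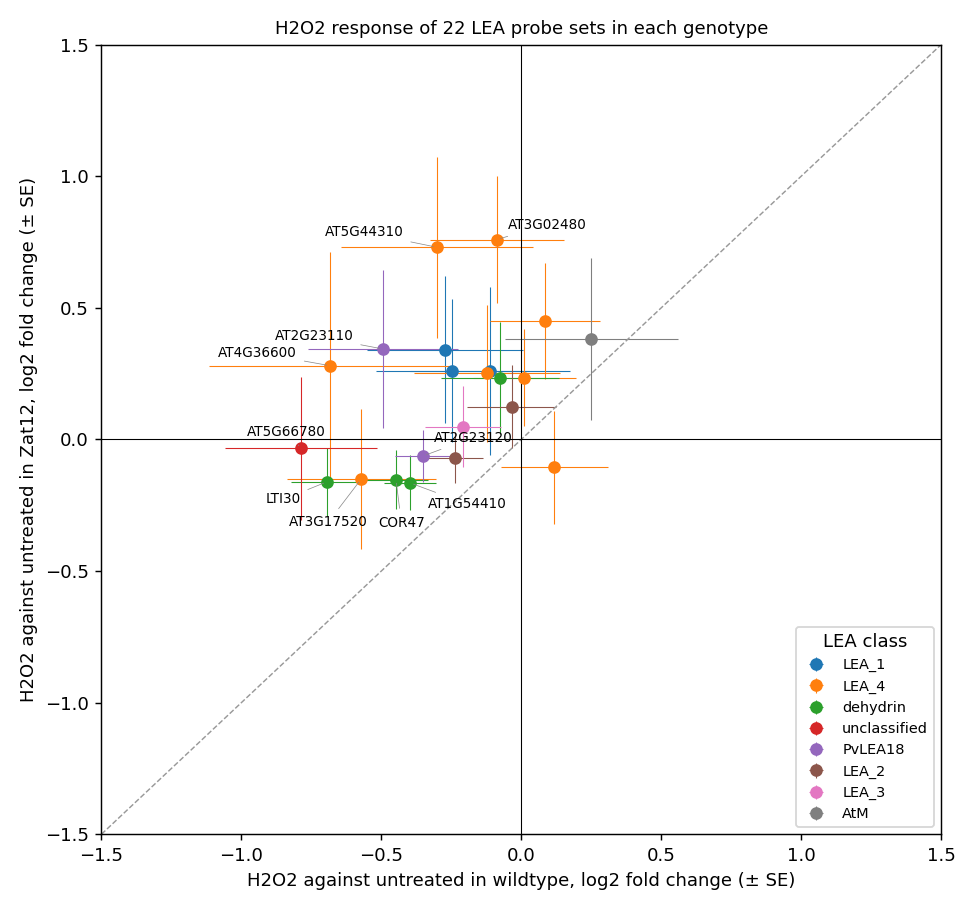
Log2 fold change (± SE) of H2O2 against untreated seedlings for the 22 tested LEA probe sets, in Zat12 (vertical axis) and in wildtype (horizontal axis), coloured by LEA class. The dashed line marks equal responses. All points but 1 lie above it, LTI30 and AT5G66780 are farthest to the left among the called ones, and AT3G02480 is called on the vertical axis.

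The other 16 LEA probe sets had signals between 0.677 and 113, and 14 of them were below the filter. Of these, M17 and COR15B passed the filter and were not called. M17 (AT2G41260), the neighbour of M10, had 69.5, 110.0 and 91.3 in Zat12 under H2O2, against 37.7, 56.4 and 84.9 in wildtype under H2O2, which overlapped. COR15A, a chloroplast protein of cold tolerance, was at or below 17.6 on every array. In the fit without the filter, the 14 dimmer probe sets had log2 fold changes between Zat12 and wildtype of -0.94 to 1.47 under H2O2 (lowest adjusted p = 0.331) and of -1.24 to 1.15 without treatment (lowest adjusted p = 0.274). Signals this low give little information on the SMP genes AT3G22490 and AT5G27980, whose signals stayed below those of the filter on all arrays.

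Over the arrays, the median of all 36 LEA probe sets, on the log2 scale and centred per probe set, was 0.55, 0.47 and 0.44 in Zat12 under H2O2, against -0.55, -0.11 and -0.22 in wildtype under H2O2. Untreated, it was 0.34, 0.57 (over 25 probe sets) and 0.01 in Zat12, against -0.35, 0.05 and -0.37 in wildtype. The treated genotypes were separate on this measure, and the untreated ones overlapped, with Zat12 replicate 3 at the level of wildtype replicate 2.

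Only a few further genes of these pathways could be read, because most had no single-gene probe set. Of 30 listed genes that respond to abscisic acid or osmotic stress, 1 had a probe set, HIS1-3, a linker histone induced by drought. HIS1-3 had 33.2, 40.8 and 44.3 in Zat12 under H2O2, against 23.8, 11.3 and 26.4 in wildtype under H2O2, and 39.2, 40 and 51.1 in untreated Zat12, against 19.8, 29.2 and 24.6 in untreated wildtype. Zat12 was above wildtype on every array of both conditions, but neither difference was called (0.91, adjusted p = 0.0695, and 0.76, adjusted p = 0.215). HIS1-3 averaged 20.5 in treated and 24.5 in untreated wildtype, below the filter signal, and passed the filter through its Zat12 arrays. In the fit without the filter the adjusted p-values were 0.155 under H2O2 and 0.369 without treatment. Of 19 listed regulators of LEA genes, 1 had a probe set, the seed bZIP factor EEL, and it was below the filter. EEL had 20.2 to 27 in Zat12 under H2O2 and 5.76 to 18.1 in wildtype under H2O2, and it had 11.7 and 24.2 on 2 untreated Zat12 arrays, against 22, 36.4 and 19.8 in untreated wildtype. These dim signals were higher in Zat12 on the treated arrays, and the untreated genotypes overlapped. In the fit without the filter neither genotype difference was called (0.99, adjusted p = 0.272, and -0.50, adjusted p = 0.814). In wildtype every treated array was below every untreated one, a log2 fold change of -1.14 that was not called in that fit (adjusted p = 0.0715).

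Markers of seed tissue were also read, since LEA transcripts are abundant there. Of 21 listed seed storage and oil body genes, 4 had a probe set and 3 were tested. The oleosin AT3G01570, a coat protein of oil bodies, had 255, 187 and 195 in Zat12 under H2O2, against 73.3, 103 and 134 in wildtype under H2O2. It was called higher there (1.04, SE 0.20, adjusted p = 0.00946) and not without treatment (0.83, SE 0.22, adjusted p = 0.0864). PAP85, a vicilin-like storage protein, and OLEO3, an oleosin, were not called under H2O2 (0.52, adjusted p = 0.333, and 0.24, adjusted p = 0.487). The summed signal of the 4 was 631 to 752 in Zat12 under H2O2 and 296 to 641.5 in wildtype under H2O2, and 529.6 to 633 on 2 untreated Zat12 arrays and 309 to 527 in untreated wildtype. AT1G03890 was below the filter, with signals of 2.25 to 11.1 over all arrays, and so gives little information. In the fit without the filter it differed between genotypes under H2O2 by -0.09 (adjusted p = 0.957). The part of these 4 genes in the LEA differences was not tested. The 3 of 12 green tissue markers on the array (RCA, LHCB4.1 and LHCB4.2) were not called between genotypes and summed to 14665 or more on every array. Of 8 root markers 2 had a probe set, and the root peroxidase AT5G17820 was called lower in Zat12 under H2O2 (-0.63, SE 0.14, adjusted p = 0.0253) and not without treatment (-0.08, adjusted p = 0.905). EXPA7, an expansin of root hairs, was not called between genotypes under H2O2 (-0.13, adjusted p = 0.787) or without it (0.57, adjusted p = 0.152). After H2O2, AT5G17820 was called lower in Zat12 (-1.81, adjusted p = 1.81e-07) and in wildtype (-1.27, adjusted p = 3.82e-06), and EXPA7 was called lower in Zat12 (-1.18, adjusted p = 9.42e-05) but not in wildtype (-0.48, adjusted p = 0.0614). The part of the root markers in the LEA values was not tested.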

How the data were processed

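The deposited table gives an intensity for each probe set on each array, which the authors computed with MAS5 on a linear scale, per the submitters' processing notes. The version, detection calls and annotation behind it are not given in the sources used here. Of 22746 probe sets without the 64 controls, 13513 were paired with 1 gene, 503 with several and 8730 with none in the platform annotation. LEA loci were matched by locus tag to a RefSeq gene table (TAIR10.1), which gave the symbols. Classes were assigned from general knowledge. The members, classes and gene lists were chosen with earlier results of these data known. Coordinates are not given, because the table names no genome build.

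Signals were turned into log2(signal + 3), and probe sets with a mean above the 40th percentile (4.96) were tested. limma 3.58.1 in R 4.3.3 fitted 4 group means to the 12 arrays with a mean-variance trend (9.12 prior degrees of freedom) and tested 5 contrasts. Python 3.11.15, pandas 2.3.3 and matplotlib 3.10.9 made the tables and plots. Values on every array were given for LEA probe sets called in some contrast or averaging 100 or more in some group. The number of arrays limits the precision. Simulated arrays with 200 of 13647 probe sets changed were used to test the code: under H2O2 it recovered 85.1% of 2-fold and 35.8% of 1.5-fold genotype differences, and 1.34% of its calls were false. That share was the lowest of the 5 contrasts. It was 8.86% for the untreated genotype difference, the highest, and 7.21% for the interaction. Replicate numbers were taken to pair the arrays where every same-numbered pair of 2 groups deviated from its group means with a correlation over 0.1. This held for Zat12 H2O2 with wildtype H2O2 (0.12 to 0.15, against -0.09 to -0.03 for different numbers) and for no other pair of groups, and the labels do not say what a number marks. Untreated with treated Zat12 missed the rule only by its lowest pair (0.08 to 0.23, against -0.13 to 0.01 for different numbers). Alternatives covered the offset, scaling, filter, trend, arrays in the fit, replicate number as a block, the 25S control as a covariate, the threshold and each array left out.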

Additional observations from a re-analysis of the deposited data

How the results depend on the processing

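No LEA fold change turned its direction where it was called, and the count of 14 LEA probe sets higher in Zat12 under H2O2 was 10 to 16 over all alternatives. The count of 6 without treatment became 1 with no filter, 2 with no mean-variance trend, 3 with the 25S covariate and 1 at an adjusted p below 0.01, and 0 to 9 with each array left out, where COR47 was called lower without wildtype replicate 3 (0 to 1 lower). For H2O2 in wildtype, the count of 5 lower became 3 in a fit on the compared groups only, 0 with the 25S covariate, 3 at an adjusted p below 0.01, 3 to 6 with each array left out, and 2 without both Zat12 replicate 2 and wildtype H2O2 replicate 1, a fit added after seeing the data. For H2O2 in Zat12, the count of 1 higher became 0 with no mean-variance trend, 2 in the compared groups only, 0 at an adjusted p below 0.01 and 0 to 1 with each array left out. The interaction gave 0 in each setting. A replicate block in all 4 groups gave counts of 14, 6, 5 and 1, the 14 with DI21 in place of AT3G53040, and changed no other LEA call of the genotype comparison under H2O2. In the other comparisons the arrays did not meet the rule on pairing: over all groups same-numbered arrays correlated between -0.25 and 0.23, and 7 of 12 arrays correlated best with their own number. Untreated with treated Zat12 came close to the rule, at 0.08 to 0.23 against -0.13 to 0.01 for different numbers. A block on those arrays alone was not fitted. Of all tested probe sets under H2O2, 207 were called higher in Zat12 and 191 lower, with ranges of 53 to 533 and 49 to 480 over the settings, the highest with the replicate block on the treated arrays alone. Untreated, 99 were higher and 68 lower, with ranges of 26 to 168 and 16 to 74. For H2O2 in wildtype the counts of 1309 higher and 1689 lower ranged from 869 to 1338 and from 772 to 1750. For H2O2 in Zat12 the counts of 1114 and 1244 ranged from 864 to 1207 and from 605 to 1637. For the interaction the counts of 0 higher and 15 lower ranged from 0 to 4 and from 3 to 44. The causes were not tested. Dim signals limit what can be said of the 14 LEA probe sets below the filter.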
